A study of Mus musculus with 86 samples.

Results

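Immunoglobulin and plasma cell genes were followed through the brains of wild house mice. The list held 8 mouse genes: the constant genes of the kappa light chain (Igkc) and of lambda light chains (Iglc1 and Iglc2), the constant genes of the mu and alpha heavy chains (Ighm and Igha), the joining chain Jchain, the B cell receptor subunit Cd79a and the plasma cell chaperone Mzb1. Members were found by matching these symbols to the Ensembl identifiers of the count table, and 7 of the 8 had a row among its 35275 genes. Iglc1 is not analysed here. The genes were chosen by name and not by a measured difference, though with earlier results of these data known.

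The animals were free-living Mus musculus domesticus from a barn population, caught outside the breeding season and picked at the extremes of a behavioural trait, the number of partners an animal met in nest boxes. The labels call the trait gregariousness, high or low, which corresponds to large or small social network size. RNA was sequenced from the prefrontal cortex (CX), hypothalamus (HY) and hippocampus (Hi) of 29 animals, 1 library per animal and region and 86 libraries in all. In CX and Hi there were 7 females with large, 7 females with small, 7 males with large and 8 males with small social network size, and in HY there were 7 of each, since 1 male with small network size gave no HY library. No treatment or engineered allele is described for any group. Ages were estimated by the study and are not given per animal. The group means did not pass the study's test, and that of males with small networks was the lowest, so a part of age in the male network comparisons cannot be told apart from network size. The regions were punched from frozen sections, and no perfusion is described.

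Antibodies are made of paired heavy and light chains. A naive B cell carries IgM on its surface, where CD79A and its partner pass the signal on, and after activation a B cell can switch its heavy chain from mu to a gamma, alpha or epsilon class and mature into a plasma cell. Plasma cells secrete large amounts of antibody. Their endoplasmic reticulum holds MZB1, a chaperone that helps antibody assembly, and they make the joining chain, which links IgM and IgA monomers into polymers that epithelia can transport. The brain tissue proper holds few such cells, while the meninges, the membranes around the brain, and the choroid plexus, which makes cerebrospinal fluid, are known to house B cells and plasma cells.

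The constant genes differ in how well short reads can tell them apart. Igkc is a single gene in the mouse, on chr6:70726435-70726966 (GRCm38, plus strand, 1 exon of 532 bases). Iglc2 lies on chr16:19198396-19200351 on the minus strand, beside close copies, and the start of its constant exon is shown against those of Iglc3 (chr16:19065230-19065681, minus strand) and Iglc1 (chr16:19061618-19062071, minus strand), because a lambda count can rest on reads that fit more than 1 of them. Capitals mark bases that differ from Iglc2, and the Igkc exon start is shown for comparison, without capitals.
Iglc2: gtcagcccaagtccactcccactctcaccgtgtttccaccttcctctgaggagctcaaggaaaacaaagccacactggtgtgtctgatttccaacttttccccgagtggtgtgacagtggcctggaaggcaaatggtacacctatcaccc
Iglc3: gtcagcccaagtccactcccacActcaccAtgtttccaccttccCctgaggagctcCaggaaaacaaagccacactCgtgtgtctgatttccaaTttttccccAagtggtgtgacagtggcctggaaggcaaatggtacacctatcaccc
Iglc1: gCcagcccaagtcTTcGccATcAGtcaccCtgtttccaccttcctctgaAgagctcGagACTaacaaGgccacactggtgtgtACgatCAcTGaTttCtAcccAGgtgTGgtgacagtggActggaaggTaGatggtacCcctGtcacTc
Igkc: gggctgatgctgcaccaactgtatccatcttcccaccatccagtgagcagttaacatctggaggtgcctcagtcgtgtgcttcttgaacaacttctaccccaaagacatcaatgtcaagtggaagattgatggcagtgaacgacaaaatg
Over these 150 bases Iglc3 differed from Iglc2 at 7 positions (95.3% identity) and Iglc1 at 34 (77.3%). Neither Iglc3 nor Iglc1 is analysed here, so the Iglc2 counts are uncertain as to which close copy was transcribed.

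The other members lie on chr12:113418558-113422730 (Ighm), chr12:113254830-113260236 (Igha), chr5:88519809-88527891 (Jchain), chr7:24897381-24902197 (Cd79a) and chr18:35647267-35649367 (Mzb1). Of the exon bases of Mzb1, 695 also fall in the annotation of its neighbour Spata24, and its low counts are uncertain for that reason.

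The libraries held 33711824 to 81865801 counts on genes, with a median of 44778419. In 170 of 170 checks, a library resembled the library of the same animal in another region more than that of any other animal, over the 500 most variable genes. Of the region markers, 4 of 5 were highest in CX, 5 of 6 in Hi and 8 of 8 in HY, each in the region the label names. The HY library of animal 19 had the lowest RNA integrity per the methods, and was kept. Region comparisons were also fitted without that animal, and without animal 30, a male with large network size whose CX library stood apart for several members. They were also fitted without animals 20 and 28, whose libraries stood apart in choroid plexus genes. All these settings were added after the data were seen.

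Igkc was abundant and varied widely between animals. Levels are given as CPM, the usual counts-per-library-size unit, with library sizes scaled by the trimmed mean of M values. In CX, Igkc ran from 1.35 CPM to 39.7 CPM with a median of 6.01 over 29 animals, a 29.4-fold range, and the highest animal, animal 30, stood well above the next at 20.1. In HY the range was 2.83 to 54.0 CPM with a median of 8.38 over 28 animals (19.1-fold), and in Hi it was 4.23 to 53.4 CPM with a median of 17.3 over 29 animals (12.6-fold). These levels rest on a median of 231, 393 and 786 counts per library in CX, HY and Hi, so counting error is small beside the range. The other light chain gene, Iglc2, was far lower, with medians of 0.233, 0.298 and 0.541 CPM and between 2 and 83 counts in a library. Per kilobase of exon, Iglc2 made a median of 4.83%, 2.54% and 3.35% of the light chain signal of Iglc2 and Igkc together in CX, HY and Hi.

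Of the heavy chain members, Ighm ranged far less across animals than Igha. Ighm ran from 5.13 to 21.7 CPM in CX (median 13.3), from 8.64 to 18.7 in HY (median 11.1) and from 7.72 to 24.5 in Hi (median 11.5), and the highest animal of a region was 4.24, 2.17 and 3.18 times the lowest. Igha ran from 0.424 to 71.9 CPM in CX (median 1.67), from 0.830 to 19.6 in HY (median 2.76) and from 1.64 to 21.9 in Hi (median 6.37). The top CX value was again animal 30, whose Igha stood at 71.9 CPM against 8.19 in the next animal, while the same animal had 4.76 CPM in HY and 7.4 CPM in Hi, inside the range of the others.

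Jchain, which encodes the joining chain, followed the light chain in shape. It ran from 0.635 to 22.5 CPM in CX (median 1.69), from 1.34 to 16.2 in HY (median 3.18) and from 2.27 to 19.4 in Hi (median 8.22), 35.4-fold, 12.1-fold and 8.53-fold from lowest to highest. The B cell receptor gene Cd79a was low and ranged less, with medians of 1.34, 1.20 and 1.3 CPM in CX, HY and Hi and extremes of 0.687 and 2.73 over all libraries. Mzb1 was lower still, with medians of 0.229, 0.468 and 0.437 CPM, and rested on 1 to 48 counts in a library.

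**Figure D1:**
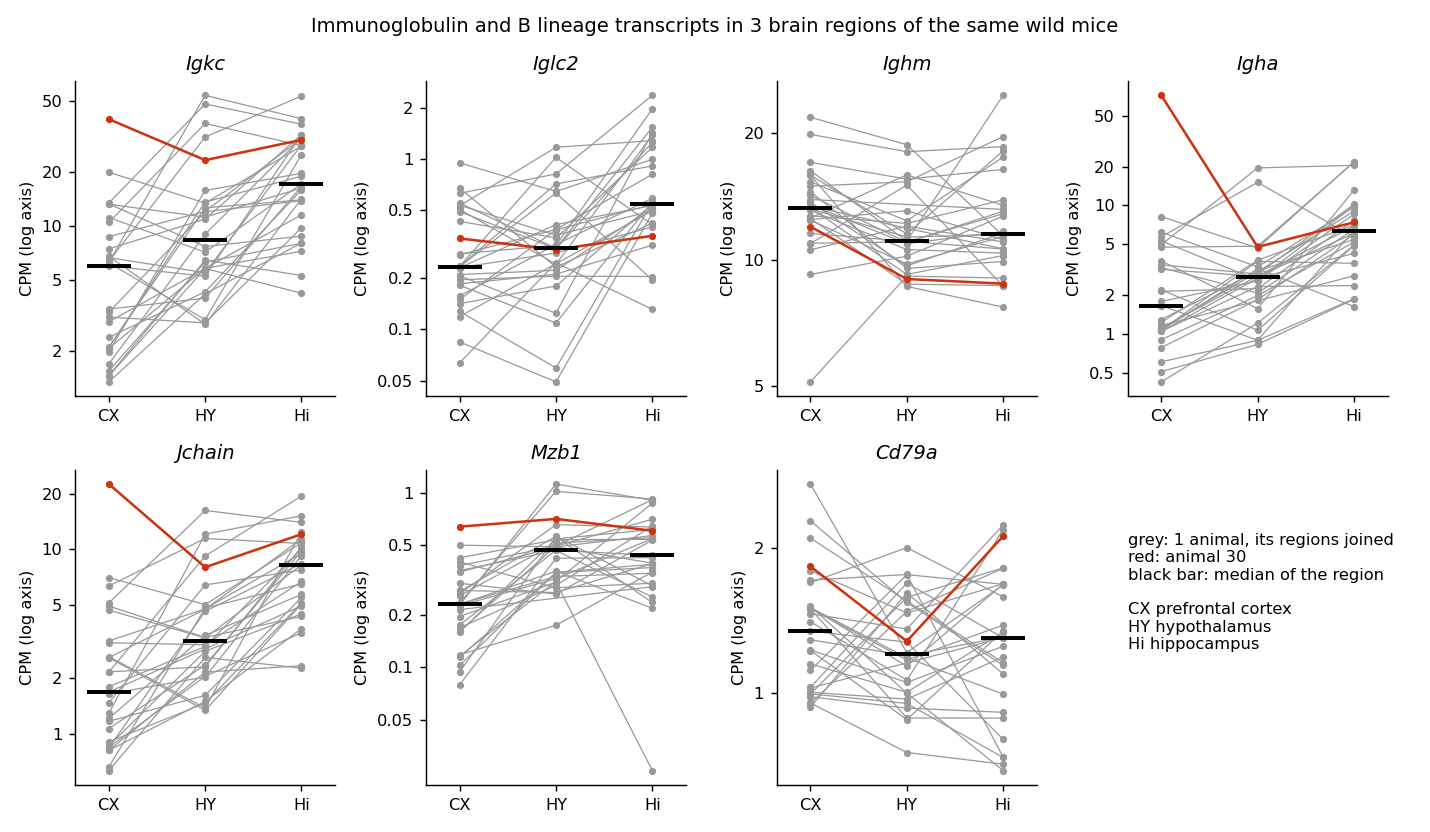
Level of each of the 7 members in CPM (log axis) in prefrontal cortex (CX), hypothalamus (HY) and hippocampus (Hi), with 1 point per library, lines joining the regions of an animal, animal 30 in red and a bar at the median. Igkc, Jchain and Igha spread over more than a 10-fold range in CX and HY, whereas Ighm stays within a 4.24-fold range in each region.

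The spread between animals was set beside that of all genes passing the count filter in a region. The standard deviation of log2(CPM + 0.05) over animals was 1.29, 1.19 and 0.93 for Igkc in CX, HY and Hi, against medians over 18452, 18753 and 18598 genes of 0.206, 0.197 and 0.182. That placed Igkc above 99.1%, 99.0% and 98.0% of genes. Igha stood at 99.4%, 98.6% and 98.2%, and Jchain at 98.8%, 98.4% and 96.5%. Ighm, with standard deviations of 0.37, 0.31 and 0.40, stood at 74.8%, 69% and 77.2%, and Cd79a at 78.2%, 73.6% and 84.3%. Spread rises as counts fall, so the comparison was repeated among the genes nearest in level (1 of 10 equal bins), where Igkc exceeded 99.0%, 99.7% and 99.7% of genes and Ighm 93.0%, 87.8% and 94.0%. Iglc2 (96.5%, 97.8% and 97.9% over all genes) and Mzb1 (92.1%, 88.6% and 96.0%) ranked high among all genes, and within their own bins of level Iglc2 ranked at 83.3%, 89.3% and 94.7%, Mzb1 at 57.8%, 73.3% and 90.8% and Cd79a at 70.3%, 58.6% and 83.6%.

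The secretory members rose and fell together from animal to animal. Pearson's r of the log2 levels of Igkc and Jchain was 0.949 in CX, 0.970 in HY and 0.964 in Hi (Spearman's rho 0.950, 0.957 and 0.928; permutation test, two-sided, p = 1e-05 in each, the smallest that 100000 permutations can give, adjusted p = 0.000105 over the 63 relations between members). Leaving out the 2 animals with the most extreme Igkc levels left r at 0.940, 0.960 and 0.949. Per kilobase, Jchain stood at a median of 0.0863 of Igkc in CX, 0.0791 in HY and 0.0837 in Hi, with all libraries between 0.0436 and 0.133, so that ratio moved little while both genes moved widely. Igkc and Mzb1 had an r of 0.620, 0.651 and 0.702, and Igkc and Iglc2 an r of 0.483, 0.609 and 0.609.

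Ighm and Cd79a, which naive B cells also express, followed Igkc less closely. For Igkc and Ighm r was 0.393, 0.325 and 0.444 in CX, HY and Hi, with permutation p-values of 0.0316, 0.0908 and 0.0156 (adjusted over the 63 relations, 0.0711, 0.151 and 0.0415). For Igkc and Cd79a r was 0.347, 0.226 and 0.291, and none passed. Igkc and Igha had an r of 0.804 in CX, 0.441 in HY and 0.224 in Hi (permutation p = 1e-05, 0.0189 and 0.243, adjusted 0.000105, 0.0476 and 0.304). Whether these coefficients differ from each other was not tested. Of the 63 relations, 25 had an adjusted p under 0.05 by r and 21 by rho, 19 of them by both. Per kilobase, Ighm stood at a median of 0.754 of Igkc in CX, 0.384 in HY and 0.196 in Hi, and it exceeded Igkc in 13 of 29 CX libraries, 2 of 28 HY libraries and 0 of 29 Hi libraries.

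**Figure D2:**
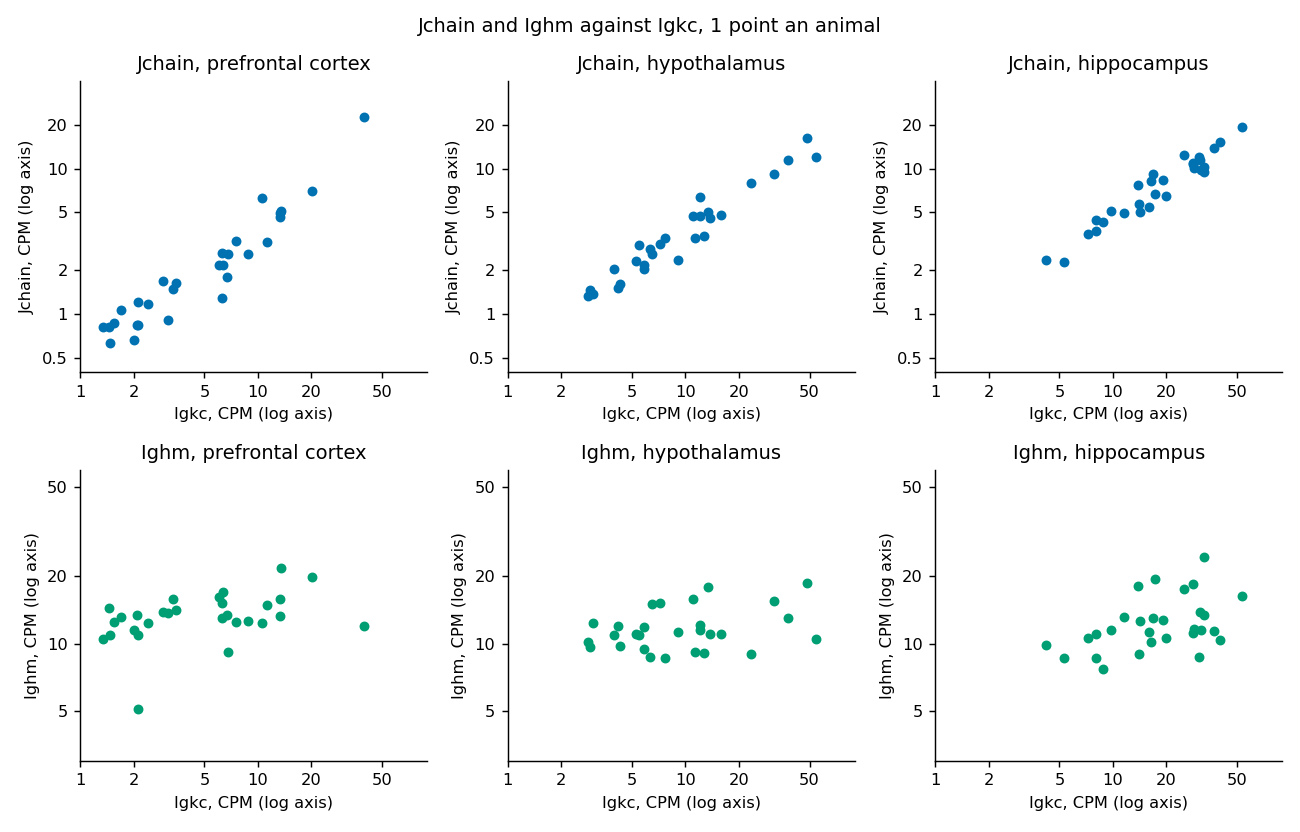
Jchain (upper row) and Ighm (lower row) against Igkc, each in CPM on log axes, with 1 point per animal and 1 panel per region. The Jchain points lie along a line in each region (r = 0.949, 0.970 and 0.964), and the Ighm points form a flat cloud (r = 0.393, 0.325 and 0.444).

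Among all 17823 genes tested in the 3 regions, Jchain was the gene whose animal-to-animal pattern was most like Igkc, with a mean r of 0.961 over regions. The next were the gamma heavy chain genes Ighg2c (0.772) and Ighg2b (0.752) and then Mzb1 (0.658). Slpi, which encodes a secreted inhibitor of leukocyte proteases, ranked at 5 with a mean r of 0.600 (0.544, 0.620 and 0.635 in CX, HY and Hi) at medians of 0.656, 0.689 and 1.05 CPM. Ighg1 (0.593), Iglc2 (0.567) and Ighg3 (0.505) followed, and then Pou2af1, the B cell coactivator of octamer factors, with a mean r of 0.501 at medians of 0.293, 0.297 and 0.425 CPM. Pou2af1 is 1 of 15 genes of the plasma cell list used below, and the sum of that list did not follow Igkc. The sum had medians of 219, 263 and 223 CPM in CX, HY and Hi. A gene as low as Pou2af1 weighs little in it, so the sum cannot show how the low genes of the list varied. The r of the sum with Igkc was 0.055, -0.148 and 0.057 in CX, HY and Hi, with Jchain 0.116, -0.078 and 0.015, and with Igha -0.141, -0.478 and -0.363. Igha ranked at 10 with 0.490 and C1qtnf1, which encodes a secreted protein of the C1q and TNF family, at 11 with 0.455. Ighm ranked at 32 with 0.387 and Cd79a at 231 with 0.288. The ranks are a description over 28 or 29 animals a region, and all of these genes were read from the same libraries.

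Levels of an animal in 1 region went with its levels in another for most antibody genes, but not more than for many other genes. For Igkc, r over animals was 0.577 between CX and Hi, 0.564 between HY and Hi and 0.400 between CX and HY (rho 0.543, 0.523 and 0.368; two-sided permutation test, p = 0.00111, 0.00175 and 0.0362, adjusted over 21 relations 0.00777, 0.00806 and 0.051), and leaving out the 2 animals with the most extreme levels gave 0.544, 0.481 and 0.311. For Jchain r was 0.528, 0.597 and 0.450 in the same order (rho 0.585, 0.573 and 0.404; permutation p = 0.00336, 0.00078 and 0.0167, adjusted 0.0118, 0.00777 and 0.0292). For Igha it was 0.590, 0.482 and 0.526 (rho 0.740, 0.431 and 0.573; permutation p = 0.00069, 0.00954 and 0.00585, adjusted 0.00777, 0.020 and 0.0175), and between CX and Hi it was 0.739 without animal 30. Over all genes the median r was 0.309 between CX and Hi, 0.342 between HY and Hi and 0.325 between CX and HY, and r passed 0.5 in 23.9%, 26.8% and 24.2% of genes. The Igkc values exceeded those of 84.0%, 80.9% and 62.1% of genes, and the Igha values those of 85.1%, 70.7% and 78.9%.

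The remaining members varied in how far regions of an animal went together. Ighm had an r of 0.461 (CX and HY), 0.436 (CX and Hi) and 0.485 (HY and Hi), with permutation p-values of 0.0131, 0.0202 and 0.00872 (adjusted 0.025, 0.0326 and 0.020), and between CX and HY it was -0.02 in females and 0.62 in males. Iglc2 had an r of 0.503, 0.559 and 0.213 in the same order, with permutation p-values of 0.00669, 0.00192 and 0.275 (adjusted 0.0176, 0.00806 and 0.304). Neither Cd79a (0.250, 0.165 and 0.351) nor Mzb1 (0.263, 0.077 and 0.403) passed in any pair. Of the 21 relations, 13 had an adjusted p under 0.05 by r and 11 by rho, all 11 of them by both, and without animal 30 Jchain between CX and HY (r 0.397) no longer passed.

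**Figure D3:**
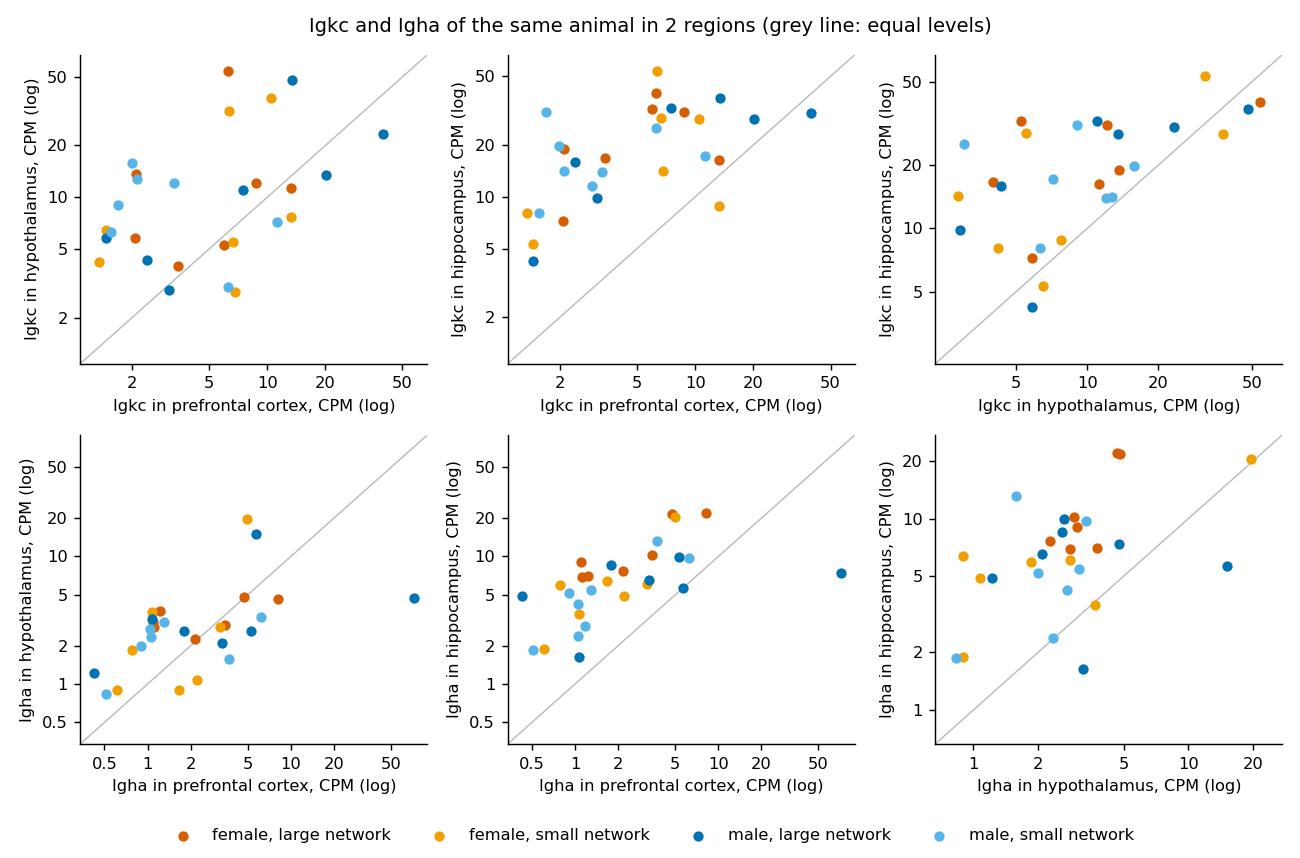
Levels of Igkc and Igha in 1 region against another region of the same animal, in CPM on log axes, with 1 point per animal coloured by sex and network size and a grey line at equal levels. Most points lie on the Hi side of the line in the panels with Hi, and the clouds are wide (r between 0.400 and 0.590).

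Which heavy chain class an animal transcribed was described as the share of each class in CPM per kilobase of exon. Ighm made a median of 75.1% of the heavy chain signal in CX, 65.5% in HY and 42.7% in Hi, with ranges of 17.7% to 93.3%, 14.8% to 83.3% and 18.2% to 74.1%. Igha made a median of 7.93%, 11.5% and 13.5%, Ighg2c 3.90%, 7.74% and 13.4%, Ighg2b 3.21%, 4.58% and 8.34%, Ighg1 2.21%, 2.64% and 4.76%, and Ighg3 0.43%, 0.65% and 1.09%. Ighe, the class of allergy and helminth infection, never passed 8 counts and stood at 0 counts in 23 of 29, 14 of 28 and 21 of 29 libraries. Ighd is not analysed here. The gamma class genes share long stretches of sequence, so a part of their reads could have been placed on a related class.

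The leading switched class differed between animals. Igha led in 17 CX, 11 HY and 11 Hi libraries, Ighg2c in 6, 9 and 8, Ighg1 in 4, 5 and 4, Ighg2b in 2, 3 and 4, and Ighg3 in 0, 0 and 2. It was the same class in all 3 regions in 7 of 28 animals, Igha in 6 of them and Ighg1 in 1, and the same in exactly 2 regions in 18. By counts not divided by length, the class was the same in all 3 regions in 14 of 28 animals.

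Some libraries held much of a single class, and the following were chosen after their values were seen. The intervals are exact binomial 95% intervals of the share of heavy chain counts, and cover counting error only. In animal 3, a female with large network size, Ighg1 took 2757 of 3779 heavy chain counts in HY (73.0%, interval 71.5% to 74.4%) and 1841 of 2949 in Hi (62.4%, interval 60.7% to 64.2%), but only 210 of 1111 in CX (18.9%, interval 16.6% to 21.3%), where Ighm took 65.4%. In animal 27, a female with small network size, Ighg2b took 807 of 1586 counts in HY (50.9%, interval 48.4% to 53.4%) and 1440 of 2604 in Hi (55.3%, interval 53.4% to 57.2%). In CX of that animal Ighg2b took 132 of 1367 counts (9.66%, interval 8.14% to 11.3%), fewer than Ighg1 with 222 (16.2%). In animal 6, a male with small network size, Ighg3 took 990 of 2179 counts in Hi (45.4%, interval 43.3% to 47.6%), and per kilobase it made 40.3% in Hi, 1.31% in HY and 0.11% in CX. The CX library of animal 30 held 3372 Igha counts of 4213 (80.0%, interval 78.8% to 81.2%), and per kilobase Igha made 75.1% in CX, 11.7% in HY and 13.5% in Hi of that animal.

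**Figure D4:**
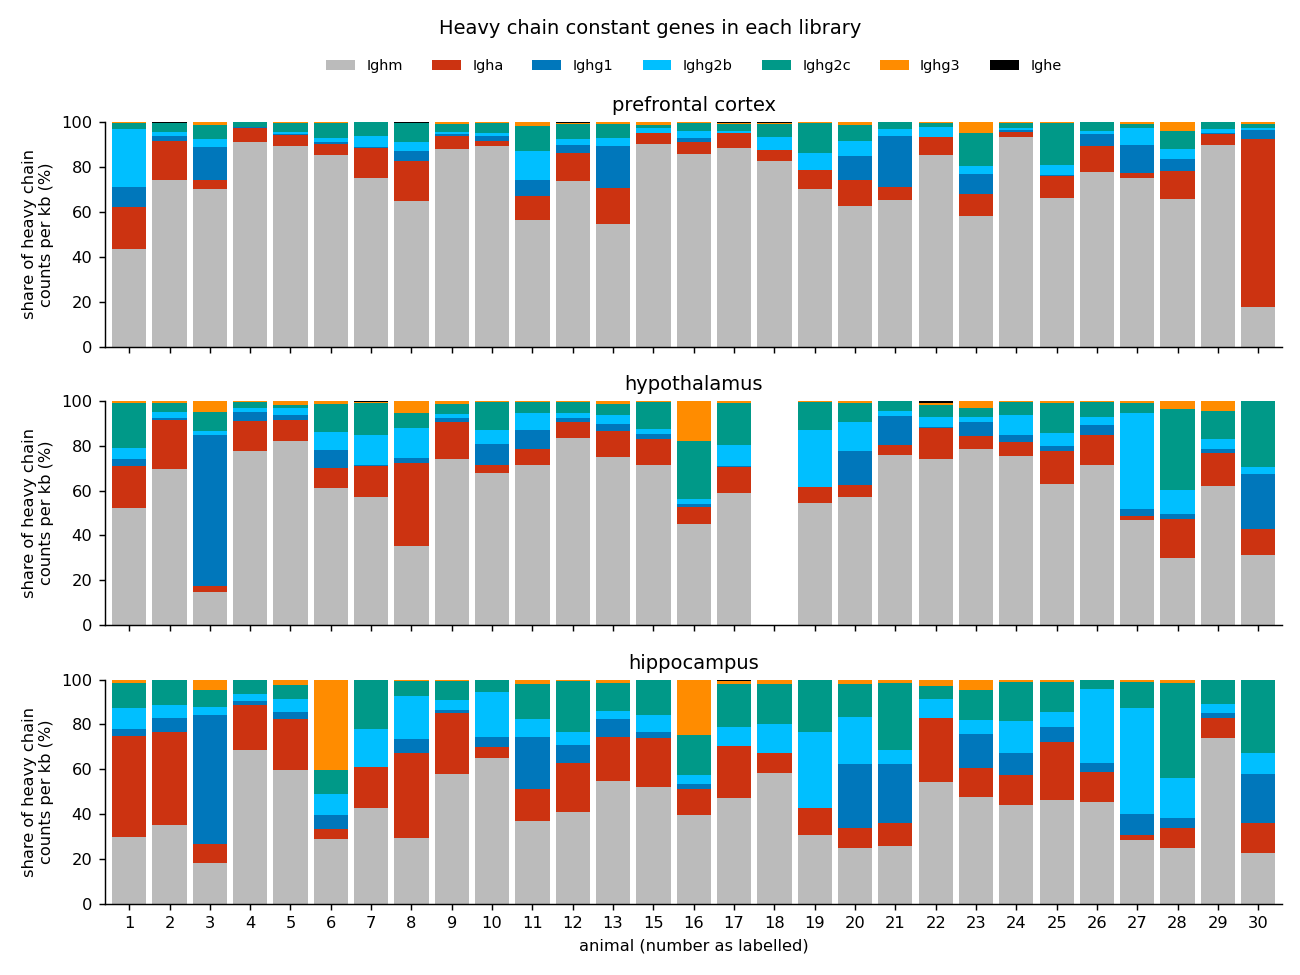
Share of each heavy chain constant gene in the heavy chain signal of a library, in percent of CPM per kilobase of exon, as stacked bars with 1 bar per animal and 1 panel per region. Ighm takes a median of 75.1% in CX and 42.7% in Hi, and the class that fills the rest differs between animals and, within an animal, between regions.

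The variable (V) segments, which are joined to the constant genes and carry the antigen contact, gave a second view that the members do not use. The table held 104 heavy chain and 97 kappa V segments, counted on the germline segments of the reference strain, so a count names the segment to which a wild mouse read was assigned and not a rearranged sequence. At least 50 counts on kappa segments were present in 20 of 29 CX, 26 of 28 HY and 29 of 29 Hi libraries, and in these the most counted kappa segment held a median of 20.1%, 24.5% and 20% of the counts, at most 56.1%, 65.4% and 54.6%. For heavy chain segments, 6, 9 and 16 libraries reached 50 counts and the leading segment held a median of 33.2%, 54.5% and 30.2%, at most 81.4%, 84.3% and 77.5%.

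Few leading V segments were common to the regions of an animal. Of 18 animals with 50 kappa V counts in every region, 0 had the same leading segment in all 3, and of 28 with at least 2 such libraries 9 shared the leading segment between at least 2. For heavy chain segments this was 1 of 3 and 5 of 10 animals. The 1 was animal 13, a male with small network size, in which Ighv2-9 took 19 of 61 counts in CX (31.1%, exact binomial 95% interval 19.9% to 44.3%), 43 of 51 in HY (84.3%, 71.4% to 93.0%) and 42 of 76 in Hi (55.3%, 43.4% to 66.7%). In animal 1, a female with large network size, Ighv1-9 took 239 of 322 counts in CX (74.2%, 69.1% to 78.9%) while Ighv1-71 took 124 of 160 in Hi (77.5%, 70.2% to 83.7%). In animal 3 the leading kappa segment was Igkv15-103 in HY, with 381 of 583 counts (65.4%, 61.3% to 69.2%), and Igkv9-124 in Hi, with 209 of 383 (54.6%, 49.4% to 59.6%). Segment shares overlapped by a median of 0.445 between regions of an animal for the heavy chain (16 pairs of libraries, range 0.217 to 0.755) and 0.185 between regions of different animals (278 pairs), where 1 is identical. For kappa segments the medians were 0.424 (64 pairs) and 0.293 (1790 pairs). Pairs share libraries, so these medians carry no test.

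Igkc, Jchain, Igha and Iglc2 were highest in the hippocampus. In the comparison of CX with Hi over the 29 animals, with the animal kept as a block, 5 of 7 members passed an adjusted p of 0.05 (edgeR quasi-likelihood test, Benjamini-Hochberg over 18084 genes), all lower in CX. Brain regions differ in most genes: 72.3% of all genes passed in this comparison, 39.3% higher in Hi and 33.0% higher in CX, so the count of members is near the background and only their direction and size describe them. Igkc was lower in CX by 1.84 ± 0.19 on the log2 scale (SE; adjusted p = 1.25e-10), Jchain by 1.85 ± 0.19 (adjusted p = 8.62e-11) and Igha by 1.57 ± 0.21 (adjusted p = 4.37e-08). Igkc was higher in Hi than in CX in 27 of 29 animals, at a median ratio of 4.02, and so were Jchain and Igha in 27 of 29. Iglc2 was lower in CX by 1.27 ± 0.16 and Mzb1 by 0.97 ± 0.18, and they were higher in Hi in 26 and 23 of 29 animals. Ighm (log2 difference 0.10 ± 0.07, CX minus Hi, adjusted p = 0.217) and Cd79a (0.07 ± 0.11, adjusted p = 0.537) did not pass. In bulk tissue, fewer cells of a type and less RNA per cell cannot be told apart.

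The hypothalamus lay between the other regions for Igkc and Jchain. Between HY and CX, over 28 animals, 4 of 7 members passed against 81.5% of all 18289 genes (44.2% higher in HY and 37.3% higher in CX). Igkc was higher in HY by 0.93 ± 0.25 (edgeR adjusted p = 0.00113), Jchain by 0.81 ± 0.22 (adjusted p = 0.000976) and Mzb1 by 0.90 ± 0.15 (adjusted p = 1.62e-06), and Ighm was lower by 0.17 ± 0.06 (adjusted p = 0.0139). Igha differed by 0.33 ± 0.24 (adjusted p = 0.213), and by 0.48 (adjusted p = 0.0244) without animal 30. Iglc2 (0.20 ± 0.18) and Cd79a (-0.13) did not pass. Without the block for the animal only 2 of 7 passed, Jchain (adjusted p = 0.0850) and Ighm (adjusted p = 0.0634) being lost. In single animals, Igkc was higher in HY than in CX in 18 of 28, Jchain in 21 and Mzb1 in 24.

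Between HY and Hi, 4 of 7 members passed, all lower in HY, against 77.4% of all 18182 genes (40.2% higher in HY and 37.2% higher in Hi). Igkc was lower in HY by 0.88 ± 0.18 (edgeR adjusted p = 4.29e-05), Jchain by 1.02 ± 0.14 (adjusted p = 1.08e-07), Igha by 1.24 ± 0.18 (adjusted p = 2.75e-07) and Iglc2 by 1.04 ± 0.21 (adjusted p = 5.40e-05). Mzb1 differed by -0.07 ± 0.14 (adjusted p = 0.659), Ighm by -0.07 and Cd79a by -0.04, and none of these passed. Igkc was higher in Hi in 23 of 28 animals and Jchain and Igha in 25. The 3 region comparisons share libraries. The median over all genes was -0.0252 (CX minus Hi), 0.0391 (HY minus CX) and 0.0131 (HY minus Hi), and that over the 7 members was -1.27, 0.33 and -0.88.

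Other antibody and B lineage genes were read from wider lists in the same fits, and each gene named here with a difference passed an adjusted p of 0.05 by edgeR. The counts of these and the later lists are to be read beside the shares of all genes passing. These were 72.3% in CX against Hi, 81.5% in HY against CX and 77.4% in HY against Hi. Of the other immunoglobulin constant genes, 4 of 4 tested were lower in CX than in Hi, 3 of 4 lower in HY than in Hi and 2 of 3 higher in HY than in CX. Ighg2c was lower in CX than in Hi by 2.17 ± 0.21 and Ighg2b by 2.37 ± 0.29, and in HY against CX they were higher by 1.0 ± 0.29 and 1.01 ± 0.31. Ighg2b was lower in HY than in Hi by 1.42 ± 0.18 and Ighg1 by 1.33 ± 0.24. Plasma cell genes, which include secretory genes that neurons and glia also use, were mixed, with 4 higher and 5 lower of 13 in CX against Hi, 6 and 3 of 13 in HY against CX, and 5 and 2 of 13 in HY against Hi. Prdm1, the master regulator of plasma cell fate, was higher in CX than in Hi by 0.95 ± 0.08, opposite to Igkc, and Sec11c, a signal peptidase subunit, was lower by 0.32 ± 0.03. Fkbp11, a secretory chaperone, was higher in HY than in CX by 1.02 ± 0.08 and than in Hi by 1.19 ± 0.06, and Txndc5, a disulfide isomerase, by 0.60 ± 0.02 and 0.45.

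B cell genes were split in direction. In CX against Hi, 2 of 9 were higher and 2 lower, in HY against CX 2 and 4 of 9, and in HY against Hi 1 and 4 of 10. Cr2, a complement receptor, was lower in CX than in Hi by 0.56 ± 0.07 and Bank1, a B cell scaffold protein, higher by 0.46 ± 0.06, and Bank1 was lower in HY than in CX by 0.44. Cd79b, the partner of CD79A, was lower in HY than in CX by 0.46 and than in Hi by 0.56, and Vpreb3, a relative of the surrogate light chain, was higher in HY than in Hi by 0.88 ± 0.14. Defining markers were low: Ms4a1 had medians of 0.309, 0.220 and 0.376 CPM in CX, HY and Hi, and Pax5 stood at 0 counts in 4 CX and 2 HY libraries. Tnfrsf17, the plasma cell survival receptor, had medians of 0.108, 0.107 and 0.0879 CPM.

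Most of the receptors and transporters of antibodies tested were lower in HY than in the other regions. Of 7 tested, 2 were higher and 0 lower in CX against Hi, and 6 were lower in HY against each of the other regions. Of all genes, 37.3% were lower in HY than in CX and 37.2% lower in HY than in Hi. Fcgr2b, the inhibitory IgG receptor, was higher in CX than in Hi by 1.09 ± 0.08 and lower in HY than in CX by 1.59 ± 0.12 and than in Hi by 0.51, and Fcgrt, which recycles IgG, was lower in HY than in Hi by 0.27. Fcer2a, the low-affinity IgE receptor, was higher in CX than in Hi by 0.32 ± 0.07 and lower in HY than in CX by 0.69. Ligands and chemokines of the plasma cell niche had 2 higher and 1 lower of 5 in CX against Hi, 3 and 1 of 6 in HY against CX, and 4 and 2 of 6 in HY against Hi.

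The choroid plexus and meningeal lists, for tissues that border the punched regions, had medians in the same order as Igkc, and the list of border macrophages and monocytes did not. The summed level of the choroid plexus list was 5.80 to 459 CPM in CX (median 9.52), 66.6 to 364 in HY (median 86.1) and 293 to 1548 in Hi (median 804), and 10 of 10 of its genes were lower in CX than in Hi. The meningeal and fibroblast list was 91.0 to 212 CPM in CX (median 123), 75.8 to 298 in HY (median 159) and 150 to 269 in Hi (median 212), and 6 of 10 genes were lower and 1 higher in CX than in Hi. The border macrophage and monocyte list had medians of 14.2, 9.69 and 14.3 CPM in CX, HY and Hi, and 3 of 7 of its genes were lower and 1 higher in HY than in CX. The part of these tissues in the region differences was not tested. Within a region, the choroid plexus sum went with Igkc over animals at an r of 0.24 in CX, 0.25 in HY and -0.02 in Hi, which became 0.19, -0.24 and -0.30 without the 2 most extreme animals. For the border macrophage and monocyte sum, r with Igkc was 0.23, 0.55 and 0.23, and 0.26, 0.34 and 0.30 without those animals. In HY that sum had an r of 0.54 with Jchain and 0.60 with Igha. The adjusted permutation p of these 2 and of Igkc in HY was 0.0771. In CX, 1 library stood far above the rest in choroid plexus genes, animal 20 at 459 CPM against 27.8 in the next, and it held 7.48 CPM of Igkc, near the CX median. In HY, the library of animal 28 stood apart in the same way, at 364 CPM against 121.7 in the next, and it held the highest HY levels of Jchain (16.2 CPM), Ighm (18.7), Iglc2 (1.17) and Mzb1 (1.12) and the second highest of Igkc (48.3). Without animal 28, Igkc was higher in HY than in CX by 0.87 ± 0.26 and lower in HY than in Hi by 0.94 ± 0.18, and without either animal the counts of members passing in the 3 region comparisons were the same, at 5, 4 and 4. Erythrocyte genes, a measure of blood left in a punch, went the other way between regions, with medians of 334 CPM in CX, 195 in HY and 198 in Hi and 4 of 4 genes higher in CX than in Hi, and over animals their r with Igkc, Jchain, Ighm and Igha stayed between -0.214 and 0.120.

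Relations of Igkc, Jchain, Ighm and Igha with 10 marker sums were computed over animals in each region, 120 in all. None passed an adjusted permutation p of 0.05 by r, and 2 passed by rho. These were Igkc with the meningeal and fibroblast sum in HY (rho 0.634, permutation p = 0.00037, adjusted p = 0.0222; r 0.526, adjusted p = 0.0902, and r 0.444 without the 2 most extreme animals) and Ighm with the T cell sum in Hi (rho 0.681, permutation p = 0.0001, adjusted p = 0.0120; r 0.607, adjusted p = 0.0528, and r 0.678 without the 2 most extreme animals). In the other regions, Igkc with the meningeal and fibroblast sum had an r of 0.387 in CX and 0.009 in Hi (rho 0.435 and -0.001). For Ighm with the T cell sum r was 0.523 in CX and 0.126 in HY. The T cell sum had medians of 14.8, 10.1 and 9.12 CPM in CX, HY and Hi, and the sum of B cell genes without the members 7.24, 6.17 and 6.52.

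Social network size, the study's own question, did not separate the members. The contrast of small against large networks was made separately for females and males in each region, and 0 of 7 members passed an adjusted p of 0.05 in any of the 6 comparisons (edgeR quasi-likelihood test, Benjamini-Hochberg over all genes tested), with the smallest adjusted p at 0.471. Few genes of any kind passed by edgeR in these comparisons: 0.0113% of genes in female CX, 0.00552% in female HY, and 0.0% in female Hi and in the 3 male comparisons. By the unadjusted p, 8 of these 42 tests were under 0.05. In males these were 3, 2 and 2 of 7 members in CX, HY and Hi, and in females 1 of 7, in CX. All 8 were lower in small networks. Across all genes, 448 of 17781, 524 of 18053 and 697 of 17950 were under 0.05 in CX, HY and Hi of males. The share was 2.52% to 12.2% by comparison, highest in Hi of females, where 0 of 7 members were under 0.05. Levels of several members went together over animals, so these tests are not independent. In each of the 42, the values of the small and the large group overlapped. The share of all genes whose groups overlap is not given here, so this does not set the members apart. The DESeq2 Wald test also called 0 members, but it called more genes of any kind in females. In small networks these were 29 higher and 45 lower in CX, 34 and 9 in HY, and 60 and 37 in Hi. The study, which used DESeq2, likewise reported more genes in females than passed by edgeR here.

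In CX of males, the differences in Igkc, Jchain and Igha did not pass over all genes and moved by more than 1.5 times without animal 30. Igkc ran from 1.56 to 11.2 CPM in 8 males with small networks (median 2.52) and from 1.46 to 39.7 in 7 with large ones (median 7.48), a log2 difference of -1.68 ± 0.62 (unadjusted edgeR p = 0.0142, exact permutation p = 0.118, two-sided). Without animal 30 it was -1.03 ± 0.56, with an unadjusted p of 0.0819 in the edgeR fit over all genes. Jchain ran from 0.665 to 3.12 CPM (median 1.35) and from 0.816 to 22.5 (median 3.19), a difference of -1.87 ± 0.61 (unadjusted edgeR p = 0.00680, exact permutation p = 0.132), and -0.93 ± 0.47 (p = 0.0661 by edgeR) without animal 30. Igha differed by -2.67 ± 0.89 (unadjusted edgeR p = 0.00780, exact permutation p = 0.196) and by -0.55 ± 0.57 (p = 0.348 by edgeR) without animal 30. The groups overlap widely for all 3 genes.

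Mzb1 showed the smallest exact p of the network comparisons in HY of males. It ran from 0.262 to 0.490 CPM in 7 males with small networks (median 0.350) and from 0.469 to 1.12 in 7 with large ones (median 0.544), a log2 difference of -0.80 ± 0.23 (unadjusted edgeR p = 0.00317, adjusted p = 0.9996; exact permutation p = 0.00175, where 0.000583 is the smallest possible). Leaving out each animal in turn gave differences from -0.88 to -0.59. In Hi of males Mzb1 ran from 0.218 to 0.546 CPM (median 0.392) against 0.293 to 0.906 (median 0.606), a difference of -0.59 ± 0.24 (unadjusted edgeR p = 0.0263, exact permutation p = 0.039). These are values of 11 to 48 counts in a library, and neither passed over all genes.

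In females neither Igkc nor Jchain passed in any region. The log2 difference of Igkc was 0.15 ± 0.49 in CX, -0.14 ± 0.65 in HY and -0.16 ± 0.45 in Hi, and the errors allow sizeable differences in either direction. Igkc ran from 2.08 to 13.3 CPM in CX of 7 females with large networks (median 6.01) and from 1.35 to 13.3 in 7 with small ones (median 6.68). Cd79a had the only unadjusted p under 0.05 in females, in CX, with a difference of -0.44 ± 0.19 (edgeR p = 0.0314, adjusted p = 0.498; exact permutation p = 0.0449).

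**Figure D5:**
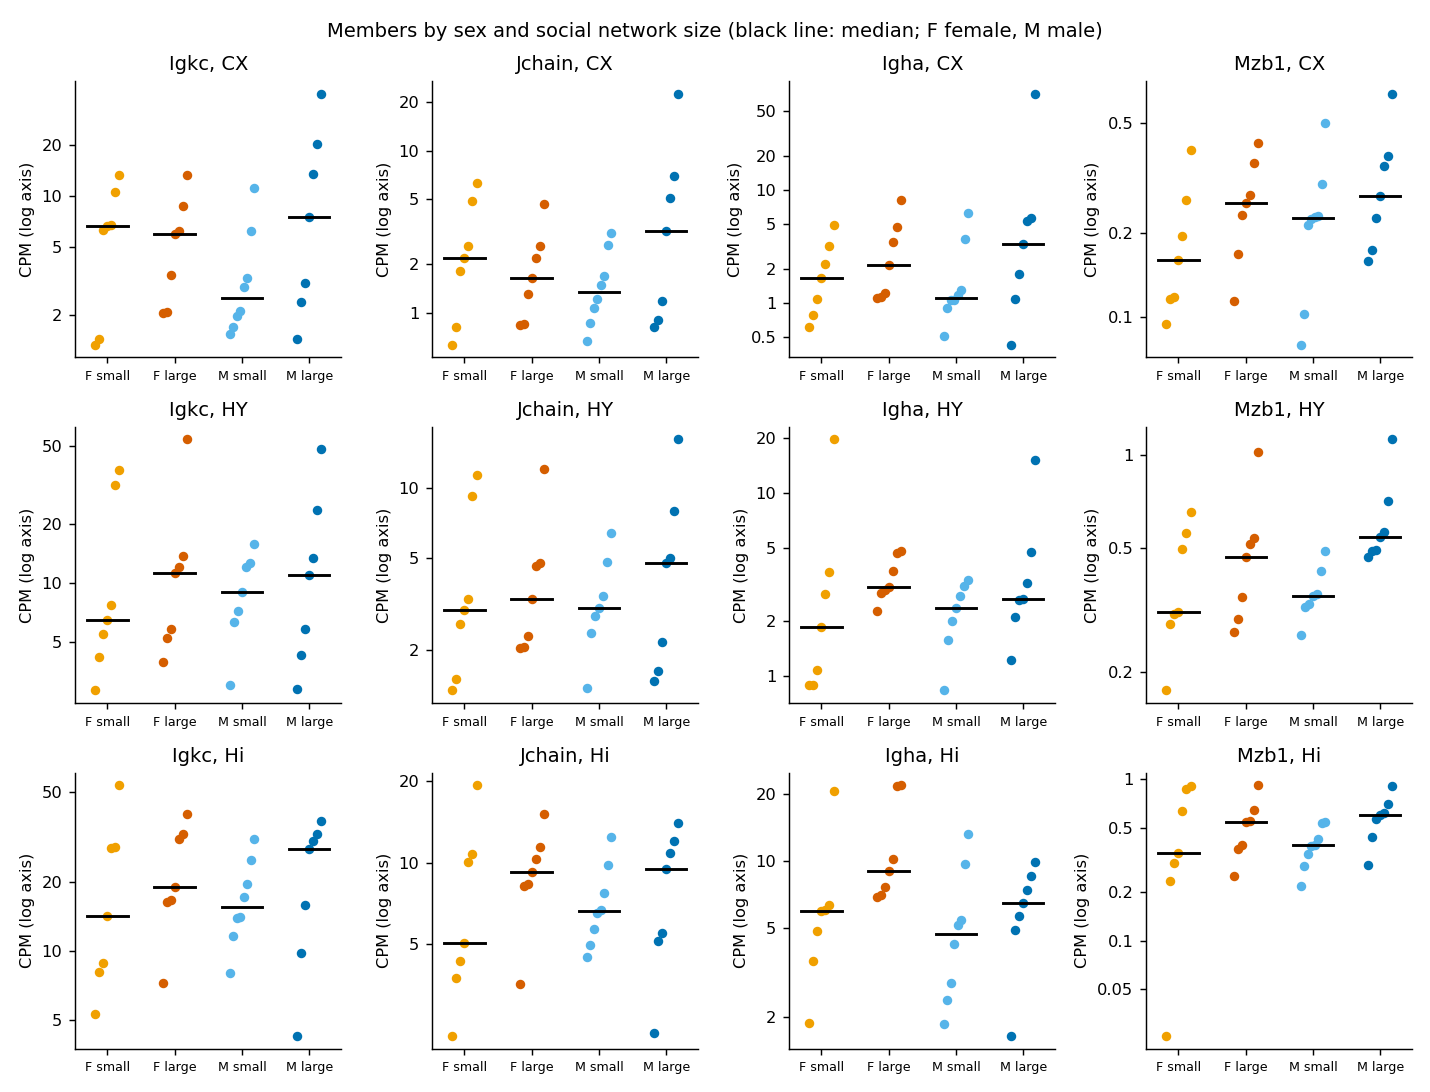
Levels of Igkc, Jchain, Igha and Mzb1 in CPM (log axis) by sex and network size in each region, with 1 point per animal and a line at the group median. Groups with small and large networks overlap in all panels, including Igkc in CX of males (1.56 to 11.2 against 1.46 to 39.7).

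The difference between the sexes in the network contrast was tested in its own term, and 0 of 7 members passed in any region by edgeR, where 0.0% of all genes passed in each and 2 of 21 member tests had an unadjusted p under 0.05. The largest terms, females minus males, were in CX, 2.32 ± 0.83 for Jchain, 2.07 ± 1.11 for Igha and 1.84 ± 0.85 for Igkc. Jchain and Igkc were the 2 with an unadjusted p under 0.05, and the adjusted p of all 3 was 0.997 by edgeR. Without animal 30 the terms were 1.38 ± 0.72 for Jchain, -0.05 ± 0.83 for Igha and 1.19 ± 0.80 for Igkc, and none had an unadjusted p under 0.05. Sex itself was compared over both network sizes: 0 of 7 members passed in CX, HY or Hi by edgeR, against 0.0976%, 0.117% and 0.102% of all genes, and 0 of 21 had an unadjusted p under 0.05. The log2 difference of Igkc, females minus males, was -0.15 ± 0.42 in CX (0.18 ± 0.40 without animal 30), 0.25 ± 0.45 in HY and 0.15 ± 0.31 in Hi. Igha had the largest, at -0.99 ± 0.56 in CX and 0.63 ± 0.31 in Hi, and the adjusted p was at least 0.811 by edgeR. The CX value rested on animal 30, without which it was 0.07 ± 0.41, while the Hi value was 0.65 ± 0.32. Over all listed genes, members included, 0 of 1501 tests passed in these 12 comparisons of network size, its interaction with sex, and sex (edgeR). Of these tests, 165 had an unadjusted p under 0.05, among them 10 of the 84 member tests. Across all genes, the share under 0.05 was 2.52% to 12.2% in the network comparisons. For the interaction it was 769 of 18452 genes in CX, 1152 of 18753 in HY and 1371 of 18598 in Hi. For sex it was 919, 1274 and 1114 of the same totals.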

How the data were processed

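The deposited counts were whole-number read counts per gene for 86 libraries. Per the study's methods, reads were cleaned of adapters and poor bases and mapped as pairs by the authors with STAR to GRCm38 and counted reads per gene with HTSeq. The annotation release, the strand setting and the handling of reads with several matches are not given in the sources used here, so reads of overlapping and of near-identical genes cannot be told apart. The submitters' processing notes also name CASAVA 1.8.2 and DESeq2. Positions and exon lengths come from GENCODE vM21 (34490 of 35275 genes matched) and sequences from GRCm38. Members and lists were chosen with earlier results of these data known.

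Genes were kept with edgeR's filterByExpr (count minimum 10, total 15, proportion 0.7), scaled by TMM and tested with edgeR 4.0.16 in R 4.3.3 by the quasi-likelihood test, with Benjamini-Hochberg adjustment over all genes tested and a threshold of 0.05. The labels number each animal, and libraries of an animal in different regions share that number. Region comparisons therefore kept the animal as a block, and the check of library identity stands in the report. Network size was compared within each sex and region. Single members were also tested by permutation of animals, exact for network size, two-sided. Correlations used log2(CPM + 0.05), 100000 permutations and Python 3.11.15 with scipy 1.17.1. Named were all members, in each region comparison the 2 genes of each antibody, plasma cell, B cell and receptor list with the smallest p, and the 5 genes outside the immunoglobulin loci most like Igkc. Marker sums covered erythrocyte, T cell, neutrophil, border macrophage, choroid plexus, meningeal, endothelial, microglia, plasma cell and B cell genes. Each library is a separate animal within a region. Intervals and p-values rest on these animals, and precision at low genes is limited by counts. Alternatives were DESeq2's size factors and its Wald test (1.42.0), no count filter, another offset, 1 fit over all 4 groups, fits without the block, within 1 sex, and without single animals. The scripts were tested on simulated data.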

Additional observations from a re-analysis of the deposited data

Results flagged for a closer look

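Of 84 groups of 7 or 8 libraries (each member in each sex, network size and region), 6 held a library whose gap to the next exceeded Dixon's critical value, and chance gives about 1 in 20. Ighm was lowest in CX of male animal 7 with a small network, at 5.13 CPM against 11.5 in the next, and highest in Hi of female animal 26 with a large network, at 24.5 CPM against 13.9. Igha was lowest in Hi of male animal 29 with a large network, at 1.64 CPM against 4.91. Jchain was lowest in Hi of female animal 9 with a large network, at 3.53 CPM against 8.22. Iglc2 was lowest in HY of male animal 10 with a small network, at 0.0593 CPM (2 counts) against 0.211, and highest in Hi of male animal 12 with a small network, at 1.53 CPM against 0.554. No explanation was tested for these values.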

How the results depend on the processing

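Without the replicate block, the count of members differing between HY and CX fell from 4 to 2, and Igha in that comparison changed sign, from 0.33 to -0.45 on the log2 scale, while in CX against Hi Igha was -0.66 and no longer passed (edgeR adjusted p = 0.124). In females alone, Cd79a turned from -0.13 to 0.00195 (HY minus CX) and from -0.04 to 0.047 (HY minus Hi), and the latter was 0.0027 without animal 20. Neither passed in females, and in males alone Cd79a passed between HY and CX (-0.28, edgeR adjusted p = 0.0371). With an offset of 0.5 CPM in place of 0.05, the median standard deviation over members and regions moved from 0.777 to 0.401. With counts in place of CPM per kilobase, the animals with 1 leading switched class in all regions rose from 7 to 14. The cause of these changes was not tested beyond the settings themselves. The other summary values, 174 in number, and 629 values of single members were classed as unchanged. For a summary count of members or relations, that class allowed a small change in the count. A member could therefore cross the threshold within it, as Igha did in CX against Hi without the block. Among single members 9 came to pass, 11 no longer passed and 8 moved. No member passed in a network, interaction or sex comparison under any alternative run. Counts of all genes called were not stable: the DESeq2 Wald test called 74, 43 and 97 genes in female CX, HY and Hi and 2, 1 and 0 in males, where edgeR called 2, 1 and 0 and 0, 0 and 0. At 200 counts, no animal had heavy chain V segment libraries in a pair of regions, so that alternative gave no value. Depth limits Iglc2 and Mzb1, which rest on a few counts in some libraries.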
